A study of Mus musculus with 6 samples.

Results

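Itch cytokine receptor subunits were followed here as 7 genes, Il31ra, Osmr, Il6st, Lifr, Il4ra, Il13ra1 and Jak1, taken by symbol from the 48401 gene rows of each deposited table. All 7 were found, and all 7 passed the filter used for testing, an average of 1 TPM or more over the 6 libraries (TPM is a level per gene length and per library). Bulk RNA-seq was made of dorsal root ganglia (DRG), where the cell bodies of sensory neurons lie, at levels L4/5. The mice were C57BL/6J males, 8 weeks old, and both groups were given siRNA intrathecally, that is, into the spinal fluid. In 3 libraries it was siCLAP, against the long noncoding RNA CLAP named with itch in the study's title, and in 3 it was siNC, taken here as the control. Whether the libraries stand for separate or pooled mice is not labelled, so the spread behind each p-value may be technical. No row is named CLAP, so its knockdown was not analysed here.

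Interleukin-31 and oncostatin M, cytokines made by immune cells, act on sensory neurons through paired receptor chains. Il31ra encodes the chain that binds interleukin-31 and pairs with the chain encoded by Osmr. The Osmr chain also pairs with gp130, the signal-transducing chain encoded by Il6st, to form a receptor for oncostatin M. Lifr encodes the receptor chain for leukemia inhibitory factor (LIF), which likewise pairs with gp130. Il4ra and Il13ra1 encode the chains of the type II receptor for interleukin-4 and interleukin-13. Jak1 encodes a kinase bound to several of these chains, which phosphorylates STAT transcription factors after the cytokine binds. In mouse DRG, Il31ra and Osmr are known from the pruriceptors that also express Nppb and Sst, whereas Il6st, Lifr and Jak1 are known from many cell types. In bulk ganglion RNA, fewer cells of a type and less RNA per cell cannot be told apart.

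The members lie in 2 pairs of neighbouring genes and 3 separate loci, by GENCODE M21 on GRCm38. Il6st (chr13:112464070-112510086, plus strand) and Il31ra (chr13:112519898-112594360, minus strand) face each other tail to tail, 9.81 kb apart, with no protein-coding gene between them. Osmr (chr15:6813577-6874969, minus strand) and Lifr (chr15:7090614-7197489, plus strand) point away from each other, 216 kb apart, also without a protein-coding gene between them. Il4ra lies at chr7:125552120-125579474, Il13ra1 at chrX:36112110-36171259 and Jak1 at chr4:101152367-101265282. Exons of Osmr, Il6st, Lifr and Il13ra1 share no base with those of another gene. Those of Il4ra share 571 of 6002 exonic bases with the antisense gene Gm44876, those of Il31ra share 45 of 5673 with the pseudogene Gm3226, and those of Jak1 share 4 of 7227 with Raver2. The library kit does not mark strand, so reads in shared bases cannot be assigned to one gene.

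The promoter windows of Il6st, Osmr and Il31ra are shown because Il6st and Osmr had the smallest p-values of the 7 genes, and because Il31ra is the neighbour of the first and the receptor partner of the second. Each window runs from 250 bases before to 50 bases after the RefSeq start on GRCm38.p6, 5′ to 3′ on the gene's strand. Capitals mark the letters TTCNNNGAA, the core of the sites that most STAT factors bind. The windows are chr13:112463820-112464119, plus strand, for Il6st, chr15:6874264-6874563, minus strand, for Osmr, and chr13:112580613-112580912, minus strand, for Il31ra.
Il6st: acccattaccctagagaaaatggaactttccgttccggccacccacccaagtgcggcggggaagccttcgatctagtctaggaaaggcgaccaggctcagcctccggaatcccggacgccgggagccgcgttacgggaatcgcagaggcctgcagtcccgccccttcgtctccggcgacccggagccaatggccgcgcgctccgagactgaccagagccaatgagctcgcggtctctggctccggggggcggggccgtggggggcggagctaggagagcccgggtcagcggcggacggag
Osmr: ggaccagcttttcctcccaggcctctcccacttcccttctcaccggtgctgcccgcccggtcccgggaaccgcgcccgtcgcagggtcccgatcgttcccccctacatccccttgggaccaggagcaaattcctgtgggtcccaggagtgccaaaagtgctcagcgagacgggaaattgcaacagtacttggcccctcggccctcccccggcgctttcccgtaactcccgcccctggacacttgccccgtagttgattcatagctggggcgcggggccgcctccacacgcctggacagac
Il31ra: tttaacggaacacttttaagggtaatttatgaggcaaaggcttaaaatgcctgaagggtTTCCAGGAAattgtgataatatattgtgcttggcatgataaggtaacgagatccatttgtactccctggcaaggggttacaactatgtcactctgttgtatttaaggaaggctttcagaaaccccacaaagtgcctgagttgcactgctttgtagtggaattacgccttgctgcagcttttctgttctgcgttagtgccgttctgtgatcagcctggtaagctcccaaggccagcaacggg
RefSeq windows were matched for all 7 genes, with 8 windows because Lifr has 2. TTCNNNGAA, which reads the same on both strands, was found once, as TTCCAGGAA beginning 191 bases before the Il31ra start, and 8.29% of 32817 promoter windows of this length hold it. The longer TTCNNNNGAA, the spacing preferred by STAT6, was found in 0 of the 8 windows and in 6.94% of all windows. The windows also differ in base composition. The Il31ra window is 44.7% G or C with 6 CpG dinucleotides, against 68.3% and 33 in that of Il6st and 66.0% and 22 in that of Osmr, where the median of all windows is 52.7% and 7. The Il31ra and Osmr starts used here lie inside the GENCODE genes, so other windows may apply to other transcripts.

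Libraries held 25982046 to 39239131 counts in siCLAP and 21386768 to 46317735 in siNC. Members were covered by 200 counts (Il13ra1 in siNC-3) to 30517 counts (Lifr in siNC-2) per library. The tissue label was checked on marker lists. The 8 pan-neuronal markers, among them Tubb3 and Snap25, summed to 13475 to 13828 TPM in siCLAP and 12678 to 12958 TPM in siNC. At an unadjusted p under 0.05, 5 of the 8 were higher and 1 lower in siCLAP, against 8.22% and 8.75% of all genes. Of these markers 0 were called by edgeR or voom, and DESeq2 called Stmn2 higher and Syt1 lower. No marker of neurons, satellite glia or myelinating Schwann cells was at 0 throughout. The T cell genes Cd3e, Cd3g, Cd4 and Cd8a stayed at or below 0.600 TPM. Caudal Hox genes, which mark position along the body axis, were not even among libraries. Hoxd10 was at 1.78, 7.94 and 0.750 TPM in siCLAP and 8.62, 15.6 and 14.8 TPM in siNC, and Hoxd11 at 0.703, 3.53 and 0.301 TPM in siCLAP and 4.63, 8.87 and 8.12 TPM in siNC. Both were lower in every siCLAP library with siCLAP-3 and then siCLAP-1 the lowest. Neither passed in the reported fit (edgeR adjusted p = 0.117 for Hoxd10 and 0.0856 for Hoxd11). In alternative edgeR fits both passed without siCLAP-2 (adjusted p = 0.00712 for each) and without siCLAP-2 and siNC-3 together (0.00795 and 0.00494). They also passed with no TPM filter (2.38e-05 and 1.80e-06), and Hoxd11 passed with the replicate block (0.0471). Over the 6 caudal Hox genes the sum was 54.7 to 71.9 TPM in siCLAP and 68.9 to 83.2 TPM in siNC, and 0 of the 5 tested were called by edgeR, DESeq2 or voom, with 2 lower and 1 higher at an unadjusted p under 0.05.

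Receptor transcripts differed widely in level, and the order of Il6st and Lifr was not the same in both groups. In siCLAP libraries the mean levels ran from Jak1 (240 TPM) through Lifr (160), Il6st (153), Osmr (38.3), Il31ra (28.9) and Il4ra (24.3) to Il13ra1 (8.29 TPM). In siNC libraries they ran from Jak1 (248 TPM) through Il6st (203), Lifr (170), Osmr (46.3), Il31ra (31.6) and Il4ra (27.1) to Il13ra1 (6.82 TPM). In siCLAP the ranges of Lifr and Il6st overlapped, as did those of Il31ra and Il4ra, while all other neighbours in the order stood apart. In siNC no neighbours overlapped. The signal-transducing chains and the kinase thus stood among the abundant transcripts, with Jak1, Il6st and Lifr at the 96.7th, 95.0th and 94.5th percentile of the mean TPM of 19141 tested genes, while Il13ra1 stood at the 35.9th.

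**Figure D1:**
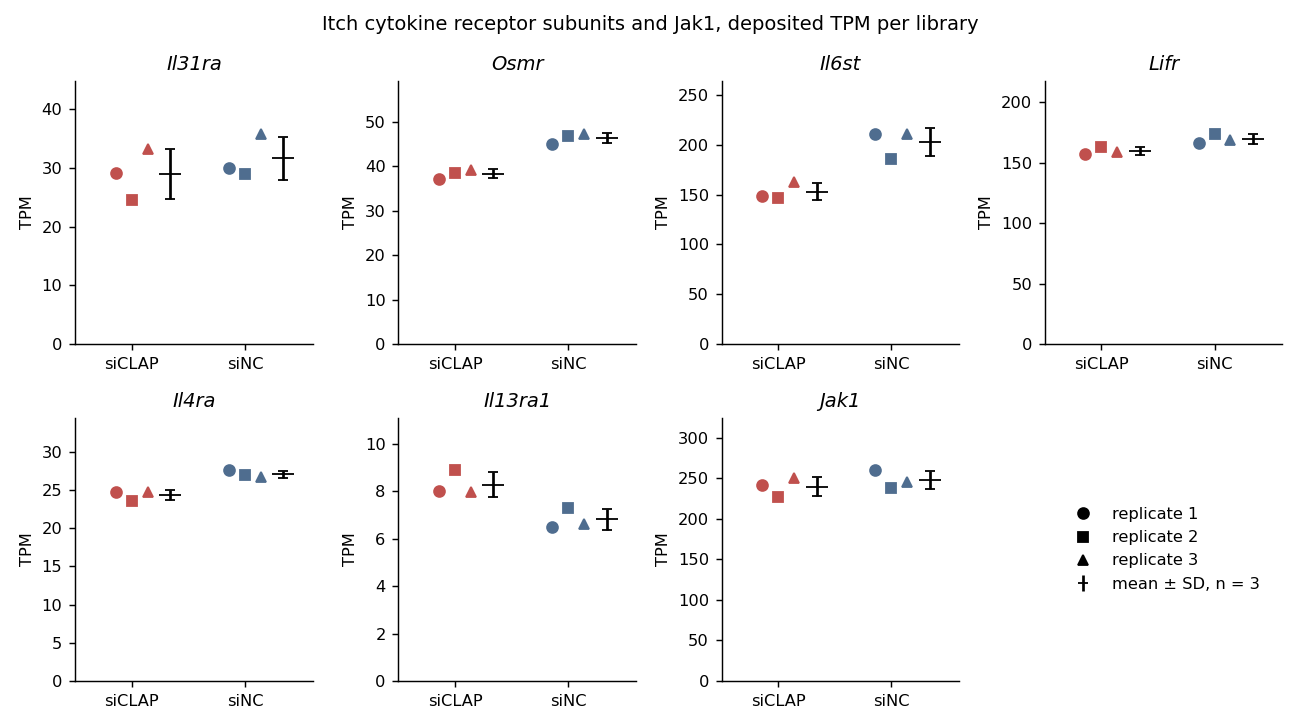
Deposited TPM (vertical axes, each starting at 0) of the 7 genes in each siCLAP and siNC library, with the mean and SD beside the points (n = 3 libraries per group). Il6st lay at 147 to 163 TPM in siCLAP and 186 to 211 TPM in siNC, and Il13ra1 at 7.97 to 8.89 TPM in siCLAP and 6.51 to 7.32 TPM in siNC, while Il31ra and Jak1 overlapped.

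The question put to these genes was whether receptor transcripts differ after siRNA against CLAP. Of the 7 members, 1 fell, 0 rose and 6 did not pass at a Benjamini-Hochberg adjusted p under 0.05 in edgeR's quasi-likelihood test. Over all 19141 genes tested 0.293% passed this test (were called), 0.219% lower and 0.0731% higher. Estimates were negative for 6 members and positive for 1, and the median log2 fold change of the members was −0.10, against −0.002 over all genes tested. At an unadjusted p under 0.05 the members counted 3 lower and 1 higher, where 17.0% of all genes passed in either direction, 8.75% lower and 8.22% higher. On normalised CPM (counts scaled to library size with TMM factors) 3 members lay lower and 1 higher with no overlap between groups, as did 21.5% of all genes in either direction, 10.7% lower and 10.9% higher.

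Il6st, the shared gp130 chain, was the member that fell. Its level was 149, 147 and 163 TPM in siCLAP libraries 1 to 3, against 211, 186 and 211 TPM in siNC libraries 1 to 3. Every siCLAP library lay below every siNC library, and siNC-2 was the lowest of the siNC libraries. The means were 153 ± 8.43 TPM in siCLAP and 203 ± 14.7 TPM in siNC (SD, n = 3 each), a 1.31-fold lower level in siCLAP (log2 fold change −0.39 ± 0.06 SE, edgeR adjusted p = 0.0268). Between 12867 and 28618 counts stood behind each value, so counting alone gave an error of at most 0.882%, against a spread between libraries of 5.51% in siCLAP and 7.25% in siNC. Type I interferon genes summed highest in siCLAP-2 (744 TPM) and siNC-3 (689 TPM). The direction held in all 18 alternative fits, from −0.44 to −0.31, but the call was kept in 9 of them. It ended without siCLAP-1 (adjusted p = 0.192), siCLAP-2 (0.0505), siNC-1 (0.0666) or siNC-3 (0.123), with limma on log2(TPM + 0.5) (0.157), without the libraries siCLAP-2 and siNC-3 (0.177), and with the level of leptomeningeal markers as a covariate (0.440), over a range of adjusted p from 2.58e-08 to 0.440.

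Osmr, the chain shared by the interleukin-31 and oncostatin M receptors, lay just outside the threshold. It stood at 37.2, 38.5 and 39.2 TPM in the siCLAP libraries, against 45.0, 46.7 and 47.3 TPM in the siNC libraries. The groups were well apart and narrow, with means of 38.3 ± 1.01 TPM in siCLAP and 46.3 ± 1.19 TPM in siNC (SD, n = 3 each). The estimate was −0.26 with an interval of 2 standard errors from −0.35 to −0.17 (edgeR adjusted p = 0.0524). Of the 18 alternative fits 6 passed, all in the same direction, among them DESeq2 (adjusted p = 0.000905) and the fit without siCLAP-3 (0.0349), and adjusted p reached 0.306 with the leptomeningeal covariate.

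Il31ra, the chain that binds interleukin-31, varied more among libraries of a group than any other member. Its level was 29.1, 24.6 and 33.2 TPM in siCLAP and 30.0, 29.0 and 35.8 TPM in siNC. The groups overlapped, and the spread was 14.9% in siCLAP and 11.6% in siNC, where the counting error of the shallowest value was 3.24%. The log2 fold change was −0.10 with an interval from −0.31 to 0.11 (edgeR adjusted p = 0.647), so a change of the size seen for Osmr lay inside the interval. Without siCLAP-2, the lowest library, the estimate was 0.00081, and it was 0.09 when siCLAP-2 and siNC-3 were both left out.

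Lifr, the LIF receptor chain, was nearly level between groups. It stood at 157, 163 and 159 TPM in siCLAP and 166, 174 and 169 TPM in siNC. These TPM ranges did not overlap, but on normalised CPM they did. The log2 fold change of −0.07 had an interval from −0.15 to 0.01 (edgeR adjusted p = 0.418).

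The chains of the type II receptor had estimates of opposite sign. Il4ra was at 24.7, 23.6 and 24.7 TPM in siCLAP and 27.6, 27.0 and 26.7 TPM in siNC, with no overlap and a log2 fold change of −0.14 ± 0.05 (edgeR adjusted p = 0.179). Il13ra1 was at 8.01, 8.89 and 7.97 TPM in siCLAP and 6.51, 7.32 and 6.62 TPM in siNC, also with no overlap, and had the only positive estimate, 0.29 ± 0.09 (edgeR adjusted p = 0.159). Neither passed. Il13ra1 had the fewest counts of the members, at 200 to 484 per library, which gives a counting error of up to 7.07%, about as large as its spread of 6.27% in siCLAP and 6.47% in siNC.

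Jak1, the kinase, was at 242, 227 and 250 TPM in siCLAP and 260, 238 and 246 TPM in siNC. The groups overlapped, and the log2 fold change of −0.03 had an interval from −0.13 to 0.06 (edgeR adjusted p = 0.770).

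The ratio of receptor partners within a library needs no scaling between libraries, and was compared for 4 pairs. The Lifr level was 1.05, 1.11 and 0.978 times that of Il6st in the siCLAP libraries, against 0.785, 0.937 and 0.804 times in the siNC libraries. Il13ra1 was at 0.325, 0.377 and 0.323 times the Il4ra level in siCLAP, against 0.236, 0.271 and 0.248 times in siNC. Both ratios were higher in every siCLAP library than in any siNC library, by 0.32 and 0.44 on the log2 scale. The exact two-sided permutation p was 0.1 for each, the smallest that 3 against 3 libraries can give, and 0.2 when adjusted over the 4 pairs. Osmr over Il31ra averaged 1.34 ± 0.199 in siCLAP and 1.48 ± 0.145 in siNC (exact permutation p = 0.4, n = 3 each), with overlap. Osmr over Il6st averaged 0.251 ± 0.0101 in siCLAP and 0.230 ± 0.0197 in siNC (exact permutation p = 0.3, n = 3 each), also with overlap. With 3 libraries per group no difference of Osmr relative to its partners was detectable.

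**Figure D2:**
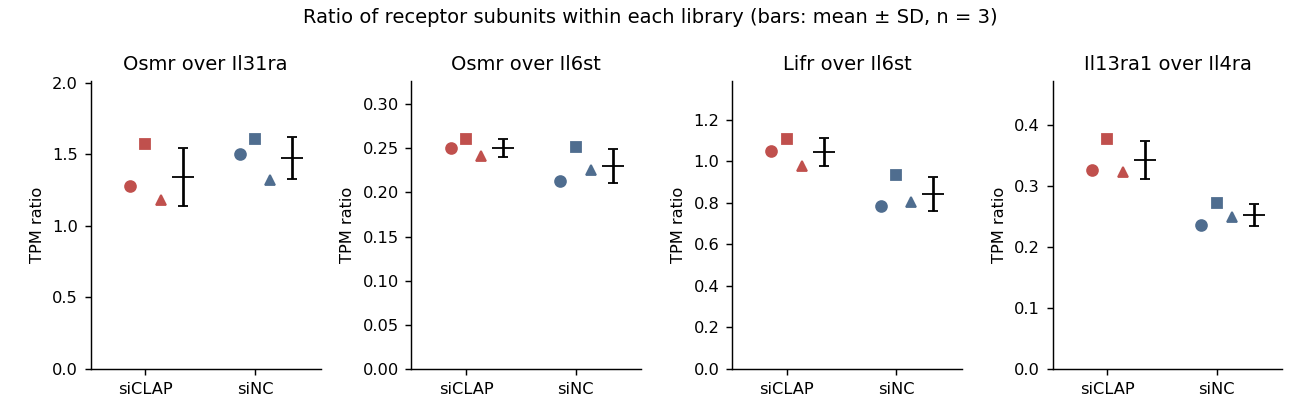
Ratio of TPM values of receptor partners in each library (vertical axes from 0; circles, squares and triangles are replicates 1, 2 and 3; bars are mean ± SD, n = 3). Lifr over Il6st and Il13ra1 over Il4ra lie higher in all 3 siCLAP libraries, while both Osmr ratios overlap between groups.

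Ligand transcripts ranged from single counts to the level of Il31ra. Il31 was listed at 1 count in siCLAP-1 and 0 in the other 5 libraries, where 3 counts, the limit that a count of 0 allows, correspond to 0.1155 and 0.1014 CPM in siCLAP-2 and siCLAP-3 and to 0.0648 to 0.1403 CPM in siNC. Osm had 0 to 3 counts in siCLAP and 0 to 1 in siNC. Il4 had 0 to 6 counts in siCLAP and 0 to 14 in siNC, and Il13 had 1 to 4 counts in both groups. Of 11 ligands of the gp130 family 4 passed the TPM filter. The most abundant was Cntf, ciliary neurotrophic factor, a Schwann cell cytokine that signals through Lifr and gp130, at 24.2, 25.0 and 30.4 TPM in siCLAP and 38.4, 29.5 and 34.8 TPM in siNC. The groups overlapped, and Cntf stood at −0.35 ± 0.11 (edgeR adjusted p = 0.161). None of the 4 was called by edgeR, DESeq2 or limma voom, and 1 was lower at an unadjusted p under 0.05. Ctf1, another of these ligands, got no adjusted p from DESeq2. Among 7 type 2 and epithelial cytokines 2 were tested and 0 called by edgeR, DESeq2 or voom, with 1 at an unadjusted p under 0.05. This was Il33, an alarmin, with means of 2.22 ± 0.0734 TPM in siCLAP and 3.33 ± 0.791 TPM in siNC. Its estimate was −0.54 ± 0.18, and 0.00096 with the leptomeningeal covariate, which itself differed between groups without overlap. DESeq2 gave Il33 no adjusted p and so could not call it.

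Other receptor chains that work with gp130 did not pass. Il6ra, the interleukin-6 binding chain, had the lowest estimate among them, −0.66 ± 0.15 (edgeR adjusted p = 0.0834). It was at 1.91, 1.97 and 1.48 TPM in siCLAP and 3.15, 2.55 and 2.95 TPM in siNC, with no overlap. Cntfr, the binding chain for ciliary neurotrophic factor, was abundant and close to level, at 86.7 ± 3.36 TPM in siCLAP and 90.6 ± 2.93 TPM in siNC (interval from −0.15 to 0.05). Il11ra1, the interleukin-11 receptor chain, stood at 0.19 ± 0.09. Of these 4 tested genes 0 were called by edgeR, DESeq2 or voom, with 1 lower at an unadjusted p under 0.05. This was Il6ra, to which DESeq2 gave no adjusted p, so DESeq2 could not call it. Among 5 tested receptors of other type 2 and epithelial cytokines 0 were called by any of these tools and 0 had an unadjusted p under 0.05. The smallest p there was that of Il17rb, at −0.37 ± 0.17 (edgeR adjusted p = 0.300), and DESeq2 gave Il17rb no adjusted p. Il13ra2, a decoy receptor for interleukin-13, had 0 to 1 counts in siCLAP and 0 to 4 counts in siNC.

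Downstream of the receptors, 0 of 9 tested JAK and STAT genes besides Jak1 were called by edgeR or voom, 8 of 9 estimates were negative and the median was −0.12. Stat6, the factor activated by interleukin-4 and interleukin-13, was at 79.3, 76.0 and 84.3 TPM in siCLAP and 93.5, 89.7 and 96.0 TPM in siNC. The groups did not overlap, the estimate was −0.20 ± 0.05 (edgeR adjusted p = 0.0905), and Stat6 was the 1 gene of the list that DESeq2 called (adjusted p = 0.0154). Stat3, the main factor downstream of gp130, stood at 192 ± 2.37 TPM in siCLAP and 202 ± 3.59 TPM in siNC, with an interval from −0.14 to 0.02. Stat2 and Tyk2, which also serve interferon receptors, stood at −0.22 ± 0.11 and −0.15 ± 0.08. Stat2 was highest in siNC-3 (133 TPM), where interferon genes summed high, but stood at 99.7 TPM in siCLAP-2, where they summed highest.

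Of 17 negative regulators 0 were called by edgeR or voom, with 3 lower and 2 higher at an unadjusted p under 0.05, and DESeq2 called 1, Socs2. Socs2 and Cish, feedback inhibitors induced by STAT5, were lower without overlap. Socs2 was at 8.25, 8.40 and 8.03 TPM in siCLAP and 10.6, 10.1 and 10.7 TPM in siNC (−0.33 ± 0.07, edgeR adjusted p = 0.0690). Cish was at 6.03, 5.39 and 5.32 TPM in siCLAP and 7.56, 6.95 and 6.89 TPM in siNC (−0.34 ± 0.10, edgeR adjusted p = 0.138). Socs7 stood at −0.16 ± 0.05. The 2 higher genes were Ptpn1, at 0.17 ± 0.05, and Socs4, at 0.15 ± 0.06. Target genes gave no calls. Of 9 STAT3 targets 0 passed in edgeR, DESeq2 or voom and 0 had an unadjusted p under 0.05, with a median of 0.06. Of 9 STAT6 targets 2 were expressed enough to test and 0 passed in the same tools, with 0 at an unadjusted p under 0.05. The one with the smaller p was Ccl11, which draws in eosinophils, at 0.43 ± 0.21, and DESeq2 gave it no adjusted p.

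**Figure D3:**
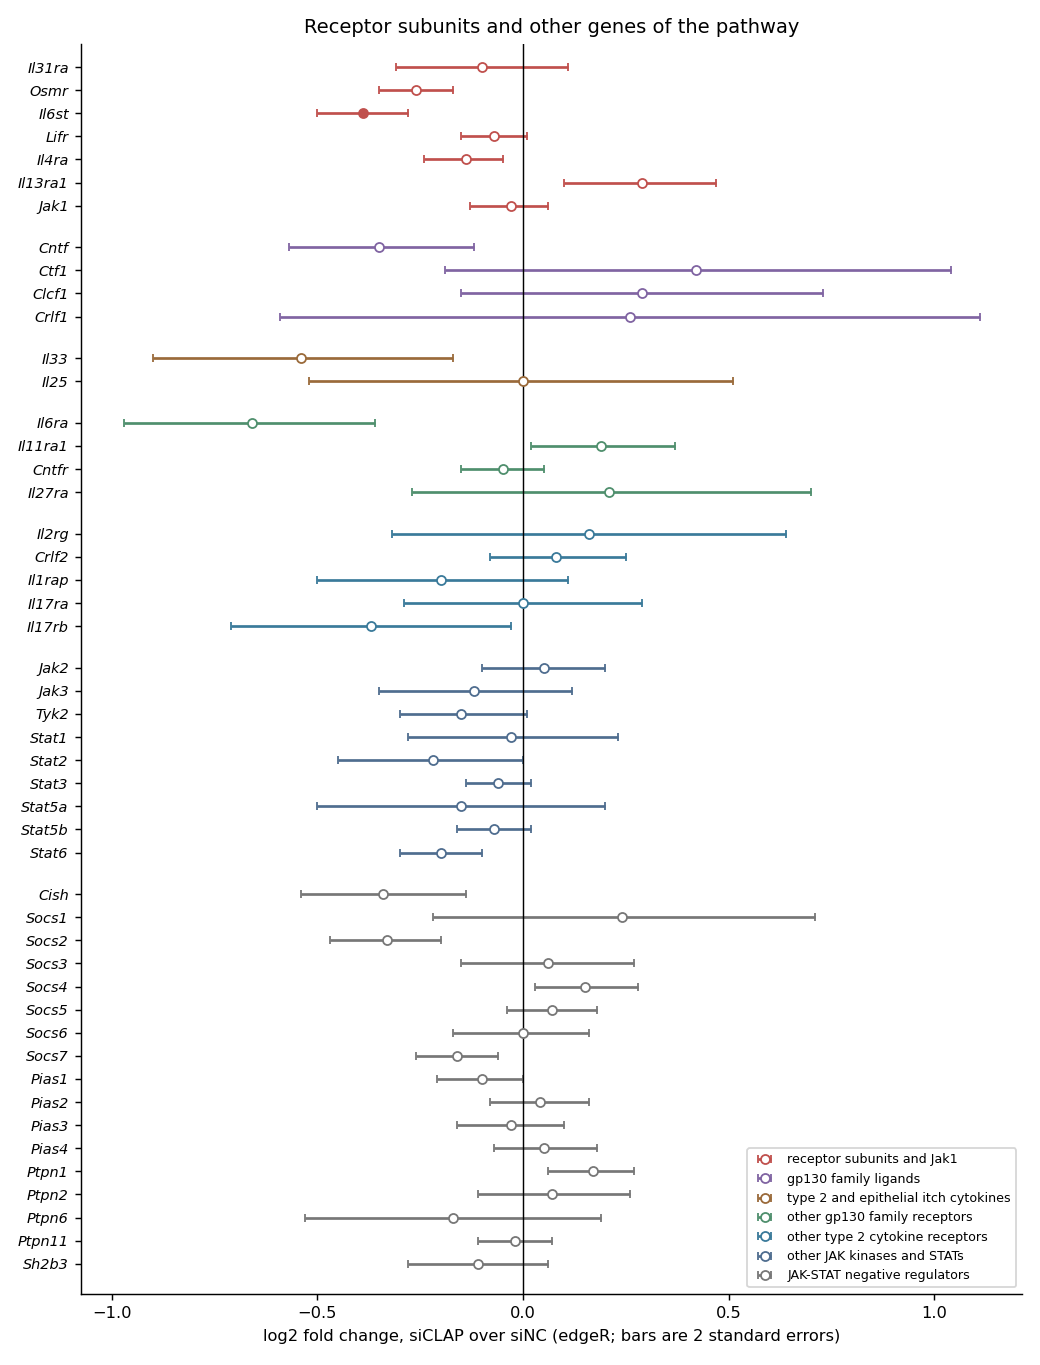
Log2 fold change of siCLAP over siNC (horizontal axis) for the 7 genes and the tested ligands, receptors, kinases, STATs and negative regulators of the pathway, with bars of 2 standard errors. The filled point, Il6st at −0.39, is the only gene shown that edgeR called, and Il6ra at −0.66 is the lowest estimate.

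Markers of the neurons known to carry Il31ra and Osmr differed in direction and size. Of 7 genes listed here as markers of the Nppb and Sst pruriceptors, edgeR called 2 lower and 0 higher. Whether each is confined to these neurons was not tested, and Plxnc1 and F2rl2 stood far above Nppb and Sst in level. DESeq2 called 4, namely Plxnc1, Cysltr2 and F2rl2 lower and Nts higher, and gave Sst no adjusted p. Over all genes of the same fits, edgeR called 56 and DESeq2 611. Nppb, the natriuretic peptide gene that names the class, was at 16.1, 13.5 and 11.3 TPM in siCLAP and 11.7, 16.3 and 18.4 TPM in siNC, with overlap (−0.14 ± 0.18, edgeR adjusted p = 0.730), and Htr1f, a serotonin receptor gene, also overlapped (edgeR adjusted p = 0.640). Plxnc1, a semaphorin receptor, fell to 131 ± 3.18 TPM in siCLAP, against 163 ± 5.69 TPM in siNC (edgeR adjusted p = 0.0306). Sst, which encodes somatostatin, fell to 4.65 ± 0.641 TPM in siCLAP, against 15.1 ± 2.64 TPM in siNC (edgeR adjusted p = 0.0141). Both lost their calls in limma on log2(TPM + 0.5) (0.148 for Plxnc1 and 0.111 for Sst) and without siCLAP-1 (0.195 and 0.0634), and Plxnc1 also without siCLAP-2 (0.0506) or siNC-3 (0.123), without siCLAP-2 and siNC-3 together (0.136) and with the leptomeningeal covariate (0.0859). The list summed to 312 to 313 TPM in siCLAP and 362 to 376 TPM in siNC, of which Plxnc1 and F2rl2, a protease-activated receptor at 120 ± 0.541 TPM in siCLAP and 137 ± 1.70 TPM in siNC, made up most. Nts, the neurotensin gene of the same neurons, was at 28.7 ± 1.20 TPM in siCLAP and 19.4 ± 5.29 TPM in siNC (0.61 ± 0.16, edgeR adjusted p = 0.101, DESeq2 adjusted p = 0.00972). The 5 markers of other pruriceptors summed to 297 to 334 TPM in siCLAP and 374 to 394 TPM in siNC, and Mrgprd, the receptor of another pruriceptor class, fell by 0.37 ± 0.06 on the log2 scale in edgeR (adjusted p = 0.0397). DESeq2 called Mrgprd and also Lpar3, a lysophosphatidic acid receptor, at −0.40 (adjusted p = 0.000597, against 0.0800 in edgeR). Neither tool called Mrgpra3 (edgeR estimate −0.23 ± 0.10), Mrgprx1 (0.06 ± 0.09) or Hrh1 (−0.06 ± 0.19). Mrgprd lost its call in limma on log2(TPM + 0.5) (0.157) and without siCLAP-1 (0.215), siCLAP-2 (0.0572), siNC-1 (0.0665) or siNC-3 (0.195). It also lost the call without siCLAP-2 and siNC-3 together (0.209) and with the leptomeningeal covariate (0.233).

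Leptomeningeal markers, of the membranes around cord and roots, summed to 7.33 to 18.9 TPM in siCLAP and 24.6 to 114 TPM in siNC. All 7 of them had lower means in siCLAP, and Slc22a6 was at 0 in siCLAP-3. With their mean log2 level as a covariate, Il6st stood at −0.31 and Osmr at −0.31, and neither passed. That mean was −0.40, −0.75 and −1.54 in siCLAP libraries 1 to 3. In siNC libraries 1 to 3 it was 1.62, −0.13 and 1.96, without overlap. Because the covariate ran with the group, this fit cannot separate it from the siRNA. Fibroblast marker sums overlapped (374 to 603 TPM in siCLAP, 346 to 528 TPM in siNC), as did macrophage sums (36.3 to 73.4 TPM in siCLAP, 34.9 to 58.9 TPM in siNC). Satellite glia markers summed to 653 to 671 TPM in siCLAP and 592 to 620 TPM in siNC, and of the 5 edgeR called Ednrb, an endothelin receptor, higher (0.45 ± 0.07, adjusted p = 0.0317). DESeq2 called Ednrb and also Fabp7, a fatty acid binding protein of these glia, at 237 ± 26.8 TPM in siCLAP and 185 ± 5.39 TPM in siNC (0.38, DESeq2 adjusted p = 0.000151, edgeR adjusted p = 0.0560). Neither tool called Kcnj10 (edgeR estimate 0.10 ± 0.06), Slc1a3 (0.02 ± 0.12) or Glul (−0.07 ± 0.05), the most abundant of the list. Myelinating Schwann cell markers summed to 3288 to 3598 TPM in siCLAP and 3302 to 4396 TPM in siNC. All 8 of these had lower means in siCLAP, and Egr2, a myelination factor, fell by 0.76 ± 0.13 on the log2 scale (edgeR adjusted p = 0.0389). Ednrb and Egr2 both lost their calls in limma on TPM, with the leptomeningeal covariate, and without siCLAP-2 and siNC-3 together (0.209 and 0.0684). Their calls also ended without siCLAP-1 (0.192 and 0.225), siCLAP-2 (0.0651 and 0.0805), siNC-1 (0.0803 and 0.0863) or siNC-3 (0.159 and 0.104). The part of the Hox genes and of these other markers in the levels of Il6st and Osmr was not tested.

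The genes most like each member over the 6 libraries were found by Pearson's r of log2 normalised CPM among the 13814 genes that averaged 5 TPM or more. Osmr was closest to Plxnd1, a semaphorin receptor (r = 0.996), and Scn11a, a nociceptor sodium channel (r = 0.995). Scn11a itself fell by 0.43 ± 0.05 on the log2 scale (edgeR adjusted p = 0.0204). Its adjusted p was 0.126 without siCLAP-1, 0.104 without siNC-3, 0.0783 without siCLAP-2 and siNC-3 together and 0.136 in limma on log2(TPM + 0.5). Il6st was closest to Tns1 (r = 0.997) and Atp13a2 (r = 0.996), and Il31ra to Srrm3 (r = 0.994) and Ltbp3 (r = 0.990). Lifr was closest to Resp18 and Fam189b, Il4ra to Nol8 and Elmsan1, Il13ra1 to Ddx25 and Spryd7, and Jak1 to Gm21984 and Ube4b, all with r of at least 0.993. Such values were common over these 6 libraries, which share the group difference, depth and preparation, since between 124 genes (Il31ra) and 866 genes (Il13ra1) exceeded 0.9 with a member, among them 393 with Osmr, 373 with Jak1 and 597 with Il6st. Among the members themselves Osmr went with Il6st (r = 0.91) and Il4ra (r = 0.88) but less with its partner Il31ra (r = 0.43), and Il13ra1 ran opposite to Il6st (r = −0.97).

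**Figure D4:**
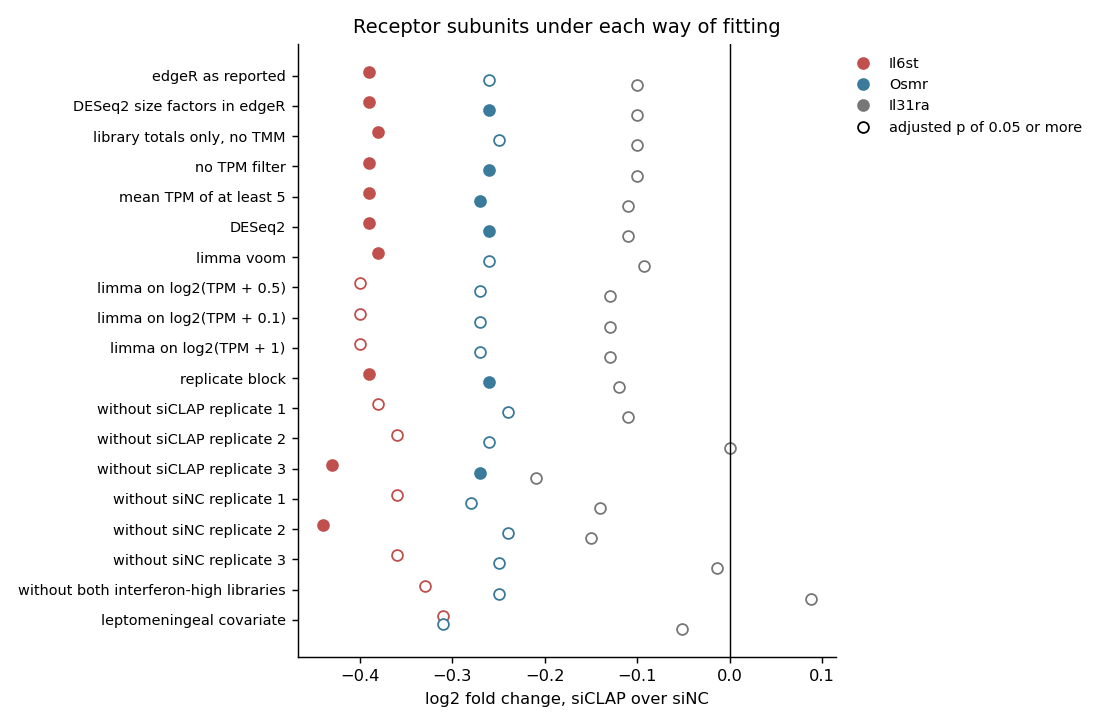
Log2 fold change of siCLAP over siNC (horizontal axis) of Il6st, Osmr and Il31ra in the reported edgeR fit and in 18 alternatives, with filled points where the adjusted p was under 0.05. Il6st stays between −0.44 and −0.31 and Osmr between −0.31 and −0.24, while Il31ra reaches 0.09 when both libraries with high interferon genes are left out.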

How the data were processed

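RNA-seq libraries of mouse L4/5 DRG, 3 from mice given siCLAP and 3 from mice given siNC, were grouped and numbered by their titles. Libraries were made, per the labels' protocols, from total RNA with an NEBNext Ultra RNA kit. FastQC 0.11.8, HISAT2 2.1.0, featureCounts 1.6.2 and build mm10 are named in the submitters' processing notes, and for annotation and multi-mapping the settings were not given in the sources used here. Per gene and library, the authors deposited a TPM value and an expected count. Of the deposited expected counts 66.5% were whole within 1e-06. They were rounded, and edgeR 4.0.16 (R 4.3.3) was run as a quasi-likelihood test with TMM and no covariate on 19141 genes averaging 1 TPM or more. A standard error is the size of the log2 fold change over the square root of F, and intervals are 2 of these. Alternatives used limma 3.58.1, voom, DESeq2 1.42.0, other scalings and filters, a replicate block, a leptomeningeal covariate, and libraries left out. The covariate was lower in every siCLAP library than in any siNC library, so its fit cannot separate it from the siRNA. The edgeR, DESeq2 and voom fits were tested on counts simulated from these libraries, with a pass mark set on 2-fold changes only. How often changes as small as those of the members were recovered is not given here. Within a group, chi-square averaged 4.37 to 10.1 a gene between libraries, above sampling noise, so none was taken as a repeat of another. This check cannot tell separate mice from preparations of pooled tissue. Intervals and floors cover counting error only where so named.

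The members and gene lists were chosen with earlier results of these data known. Named genes were all members, list members that were called or among the 3 smallest p of their list, and the 2 genes most correlated with each member. Of these only part is named. Nts, Nppb, Htr1f, F2rl2, Stat3, Il31, Osm, Il4, Il13, Il13ra2, Slc22a6, Cd3e, Cd3g, Cd4, Cd8a, Tubb3 and Snap25 were named outside that rule, for their roles or after their values were seen. The same holds for Glul, Slc1a3, Mrgprx1, Hrh1, Ptpn1 and Socs4. Gene positions came from GENCODE M21 and promoter windows from RefSeq, both on the build named for the files.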

Additional observations from a re-analysis of the deposited data

How the results depend on the processing

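Of the 7 members, 2 (Il6st and Osmr) were called lower with DESeq2 size factors in edgeR, with no TPM filter, with a mean TPM of at least 5, with DESeq2 and with the replicate block. With limma on log2(TPM + 0.5), log2(TPM + 0.1) or log2(TPM + 1), without both interferon-high libraries (siCLAP-2 and siNC-3) and with the leptomeningeal covariate 0 were called, with 5, 5, 5, 2 and 2 at an unadjusted p under 0.05. Leaving out single libraries gave 0 to 2. Over all genes, 56 were called in the reported fit, against 835 with no TPM filter, 118 with a mean TPM of at least 5, 611 with DESeq2, 0 in the 3 limma fits on TPM (3017 to 3040 unadjusted), 13 without both interferon-high libraries and 20 with the covariate. Leaving out single libraries gave 0 (siCLAP-1, 1960 unadjusted) to 340 (siCLAP-3). Same-numbered libraries did not deviate together (r = 0.04, 0.00 and −0.03), and siCLAP-2 correlated best with siNC-3, so the numbers were not taken as pairs. The replicate block called 203 genes and gave Osmr an adjusted p of 0.0349. Signs turned for Il31ra (single libraries left out, −0.21 to 0.00081; without both interferon-high libraries, 0.088), Jak1 (−0.062 to 0.0062), Il33 (0.00096 with the covariate) and Htr1f (0.38 with the covariate), and the cause was not tested. All 4 subunit ratios kept their direction, from 0.27 to 0.40 for Lifr over Il6st and from 0.37 to 0.49 for Il13ra1 over Il4ra. Depth limits Il13ra1 most, and ligands under the TPM filter were not tested.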

Other observations

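Interleukin receptor genes outside the 7 members were counted by symbol, a set chosen after values were seen. Of 17 such genes tested, 0 were called by edgeR, DESeq2 or voom, and 3 were lower (Il6ra, Il17rc and Il17rd) and 0 higher at an unadjusted p under 0.05. DESeq2 gave at least Il6ra and Il17rb no adjusted p, so its count covers fewer than 17 genes. The median log2 fold change of the 17 was −0.06.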
